A study of Mus musculus with 4 samples.

Results

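The oxidative phosphorylation genes of mouse testis were taken by name from a table of read counts per gene: names that begin with mt-Nd, mt-Co, mt-Cytb, mt-Atp, Nduf, Uqcr or Atp5, the Cox4 to Cox8 genes, and Sdha, Sdhb, Sdhc and Sdhd. This rule gave 107 of the 25683 genes in the table, 13 of them encoded in mitochondrial DNA and 94 in the nucleus, after 2 names that contain "-ps" were left out. Of the 107 genes 103 had enough reads to be tested, all 13 mitochondrially encoded genes and 90 of the nuclear genes.

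RNA from testis was sequenced in 2 libraries of control mice (WT) and 2 of mice without intact *Parp1* (knockout), to check whether *Parp1* mRNA is made in the knockout. The knockout mice carried the *Parp1* tm1Zqw allele, a *neo* cassette in exon 2, made in 129S mice and moved to C57Bl/J by 7 generations of crossing, so that the allele and any 129S sequence that was carried along cannot be told apart. The age of the mice is not given in the sources used here, and nothing says whether libraries of one genotype came from separate animals, so p-values measure only the spread between these libraries. Both knockout libraries carry titles that name a *Parg* line, PARG29b, while their genotype label reads PARP1ko. *Parp1* was at 86.4 and 86.0 CPM (read counts scaled to a common library size) in the control libraries and at 24.1 and 22.1 CPM in the knockout libraries, a log2 fold change of −1.90 ± 0.10 (SE, adjusted p = 0.0126, quasi-likelihood test of edgeR), which goes with the genotype label. The columns of both knockout libraries share one heading, so they are called here knockout library A, with 21821073 reads on genes, and knockout library B, with 18103863. The control libraries held 20449210 and 23503503 reads.

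The libraries of one genotype were not alike in cell type markers. Markers of elongating spermatids (10 genes, among them *Prm1* and *Tnp1*) summed to 26564 and 26875 CPM in control, 34021 CPM in knockout library A and 16625 CPM in knockout library B. Markers of Leydig cells (7 genes) summed to 1345 and 1703 CPM in control, 1191 CPM in library A and 2572 CPM in library B. All 10 germ cell markers of the elongating stage were detected, as the tissue label requires. Markers of skeletal and heart muscle summed to between 6.52 and 10.4 CPM and those of adipose tissue to between 18.9 and 23.0 CPM. The 6 markers of the epididymis summed to more, between 158 and 257 CPM. Of these 6, 3 had enough reads to be tested and 1, *Lcn8*, was at 0 in every library. In bulk RNA, fewer cells of a type and less RNA per cell cannot be told apart.

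Oxidative phosphorylation passes electrons from NADH and succinate along complexes I to IV of the inner mitochondrial membrane to oxygen, and complex V (ATP synthase) uses the proton gradient that results to make ATP. Mitochondrial DNA encodes core subunits of complexes I, III, IV and V, whereas complex II and all other subunits are encoded in the nucleus, so that each mixed complex is built from products of both genomes. Male germ cells are known for their own isoforms of several mitochondrial proteins, among them subunits of cytochrome c oxidase (complex IV) and cytochrome c. Nuclear respiratory factor 1 (NRF1) is a transcription factor known to bind promoters of many nuclear genes of the respiratory chain.

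Knockout and control were compared over all 15834 genes with enough reads by the quasi-likelihood test of edgeR, with p-values adjusted over all of them. At an adjusted p below 0.05, 15 genes passed (0.0947% of the genes tested), and 0 of the 103 oxidative phosphorylation genes were among them. At an unadjusted p below 0.05, 4 of the 103 genes passed (3.88%), against 7.79% of all genes. These were *Ndufs5*, *mt-Atp8*, *Cox7a2l* and *Ndufs8*. Of the other tools, DESeq2 called 193 genes (1.22%), with *Ndufs5* the one oxidative phosphorylation gene among them, and 2 members had an unadjusted p below 0.05 (5.58% of all genes). The voom method of limma called 11 genes (0.0695%) and 0 members, with 4 members at an unadjusted p below 0.05 (7.75% of all genes). The median log2 fold change was −0.25 for the mitochondrially encoded genes, 0.03 for the nuclear genes and 0.01 for all genes tested. By levels alone, both knockout libraries lay below both control libraries for 19 of the 103 genes (18.4%, against 19.2% of all genes) and above them for 14 (13.6%, against 17.9%).

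**Figure D1:**
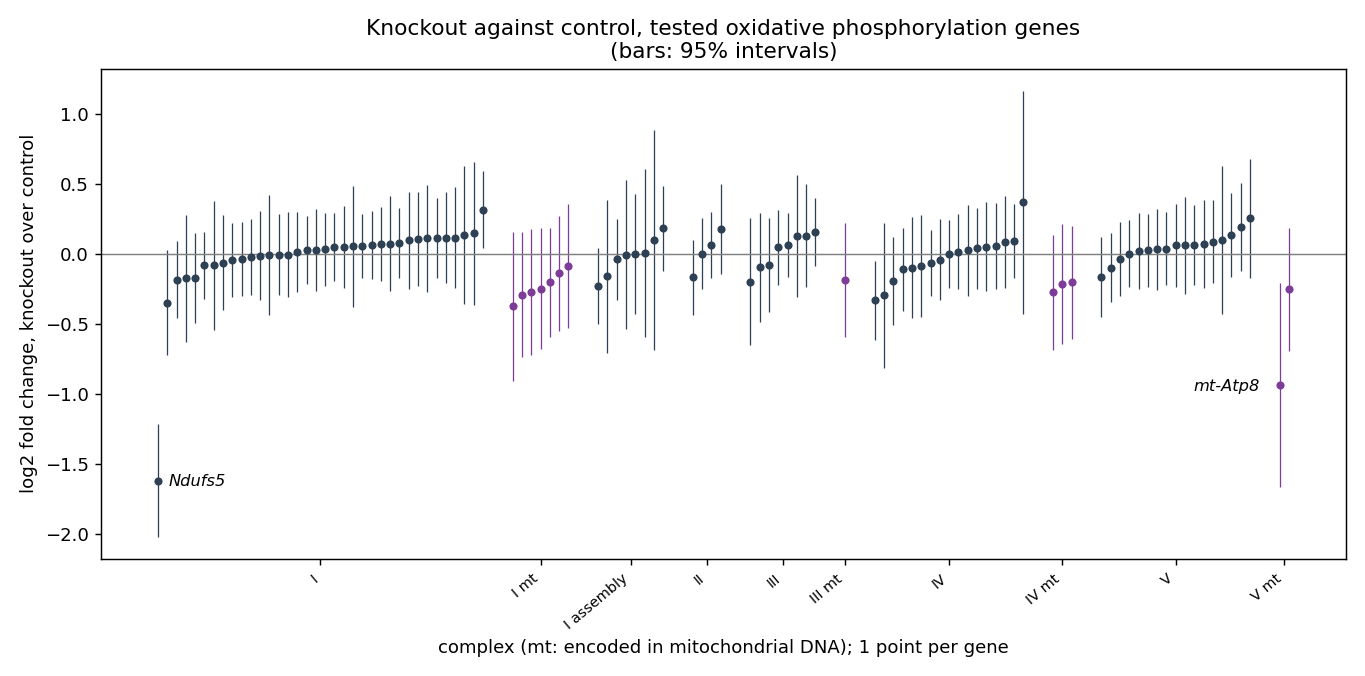
Log2 fold change of knockout over control (vertical axis) for the 103 tested genes, 1 point per gene, grouped along the horizontal axis by complex and ordered by value within a group; bars are 95% intervals from the edgeR fit, dark points are nuclear genes and violet points mitochondrially encoded genes. *Ndufs5* lies at −1.62 and *mt-Atp8* at −0.94, while the other nuclear genes lie between −0.35 and 0.37.

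*Ndufs5*, which encodes an accessory subunit of complex I, was the member with the largest difference. It had 740 and 866 reads in the control libraries, 271 reads in knockout library A and 196 reads in knockout library B. Scaled for depth, the level was 35.9 and 36.6 CPM in control, 13.4 CPM in library A and 10.2 CPM in library B. The groups did not overlap, and the higher knockout library held 37.3% of the lower control library. The fitted log2 fold change was −1.62 ± 0.16 (SE, 95% interval −2.02 to −1.22), so that 32.6% of the control level (24.7 to 43.0%) was measured in knockout. The gene ranked 22 of 15834 by p, and its adjusted p of 0.0610 in edgeR missed the threshold of 0.05. It passed in DESeq2 (adjusted p = 1.17e-09), and in edgeR with no scaling beyond the read totals (adjusted p = 0.0188, where 0.259% of genes passed) or with no filter on low counts (adjusted p = 0.0197, where 0.27% passed). With 1 library left out, the log2 fold change lay between −1.82 and −1.44. Such a fit leaves 1 library in one genotype, so no p-value of *Ndufs5* is given for it.

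*Ndufs5* (ENSMUSG00000028648) lies on the minus strand of chromosome 4, at 123712710 to 123718202 of GRCm38, and its exons overlap those of no other annotated gene. The gene on either side was measured too. *Macf1*, a cytoskeletal linker gene, had a log2 fold change of 0.03 (95% interval −0.41 to 0.48), and *Akirin1*, which encodes a nuclear protein, 0.08 (95% interval −0.25 to 0.40). Of the 31-base words in the *Ndufs5* coding sequence 80.9% also occur in an annotated pseudogene, *BC002163*, and all *Ndufs5* reads of the control libraries were counted as mapping to 1 place. How the *Ndufs5* reads of the knockout libraries mapped was not examined, so misplaced reads there were not tested for.

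The promoter of *Ndufs5* is shown beside those of 2 other members because the 3 windows hold the letters of the NRF1 motif (GCGCA, any base, GCGC, read on either strand), beside fold changes of different size. The windows run from 250 bases before to 50 bases after the start of each gene (RefSeq, GRCm38.p6, 5′ to 3′ on the gene's strand), at chr4:123718137-123718436, chr9:50603800-50604099 and chr5:115348909-115349208, all on the minus strand, with the motif in capitals.
Ndufs5: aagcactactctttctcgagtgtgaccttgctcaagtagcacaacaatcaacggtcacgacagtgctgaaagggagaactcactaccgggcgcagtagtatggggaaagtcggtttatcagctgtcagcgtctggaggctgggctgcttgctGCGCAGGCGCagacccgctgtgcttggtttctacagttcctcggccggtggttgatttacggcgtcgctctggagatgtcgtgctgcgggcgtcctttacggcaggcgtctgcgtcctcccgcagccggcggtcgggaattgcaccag
Sdhd: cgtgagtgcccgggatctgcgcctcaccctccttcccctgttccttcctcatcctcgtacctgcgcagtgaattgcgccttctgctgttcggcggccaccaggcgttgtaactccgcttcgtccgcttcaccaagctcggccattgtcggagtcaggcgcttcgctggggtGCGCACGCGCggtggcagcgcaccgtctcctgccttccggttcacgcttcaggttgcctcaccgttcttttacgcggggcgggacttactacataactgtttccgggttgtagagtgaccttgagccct
Cox6a1: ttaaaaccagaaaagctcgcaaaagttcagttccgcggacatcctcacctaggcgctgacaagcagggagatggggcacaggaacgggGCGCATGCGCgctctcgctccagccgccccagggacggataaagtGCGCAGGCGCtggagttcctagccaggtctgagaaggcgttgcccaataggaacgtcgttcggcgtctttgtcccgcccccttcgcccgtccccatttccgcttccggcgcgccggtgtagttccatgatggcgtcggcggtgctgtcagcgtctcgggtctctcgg
In *Ndufs5* the match spans 98 to 89 bases before the start. In *Sdhd*, which encodes a membrane anchor of complex II, it spans 79 to 70 bases before the start, and the log2 fold change was −0.17 (95% interval −0.43 to 0.10). *Cox6a1*, a subunit of complex IV, holds 2 matches, at 162 to 153 and 117 to 108 bases before the start, and its log2 fold change was 4.9e-05 (95% interval −0.24 to 0.24). Neither gene passed the test, and for *Sdhd* both knockout libraries lay below both control libraries.

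A window was found for 75 of the 94 nuclear members. On either strand, the NRF1 letters were found in 18 of the 75 genes (24%). Counted by window, they were in 19 of the 80 windows of these genes (23.75%) and in 4.60% of all 32851 windows. The 17 genes with a match other than *Ndufs5* had log2 fold changes between −0.17 and 0.19, with a median of 0.0019. The ETS motif CCGGAAGT was found in 5 of the 80 windows (6.25%) and in 3.89% of all windows. The cyclic AMP response element TGACGTCA was found in 4 of the 80 (5%) and in 1.79% of all windows. Neither the ETS motif nor the cyclic AMP response element was found in the 3 windows shown. A match is a run of letters and not evidence of a bound site.

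The other 35 nuclear genes of complex I had log2 fold changes between −0.35 and 0.32, and the median over all 36 was 0.03. The core subunits encoded in the nucleus, which carry the flavin and the iron-sulfur clusters, included the largest rise. *Ndufs8*, an iron-sulfur subunit, was at 32.3 and 30.5 CPM in control, 40.8 CPM in knockout library A and 37.3 CPM in library B. Both knockout libraries lay above both control libraries, with a log2 fold change of 0.32 ± 0.11 (SE), an unadjusted p of 0.0305 and an adjusted p of 0.544 in edgeR. The core genes *Ndufs1*, *Ndufs3*, *Ndufs7*, *Ndufv1* and *Ndufv2* lay between −0.02 and 0.10, and in each of them the groups overlapped. The accessory subunit gene *Ndufa12* was at 115 and 111 CPM in control, 101 CPM in library A and 76.8 CPM in library B, with a log2 fold change of −0.35 ± 0.15 (SE, unadjusted p = 0.0628, adjusted p = 0.691 in edgeR).

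**Figure D2:**
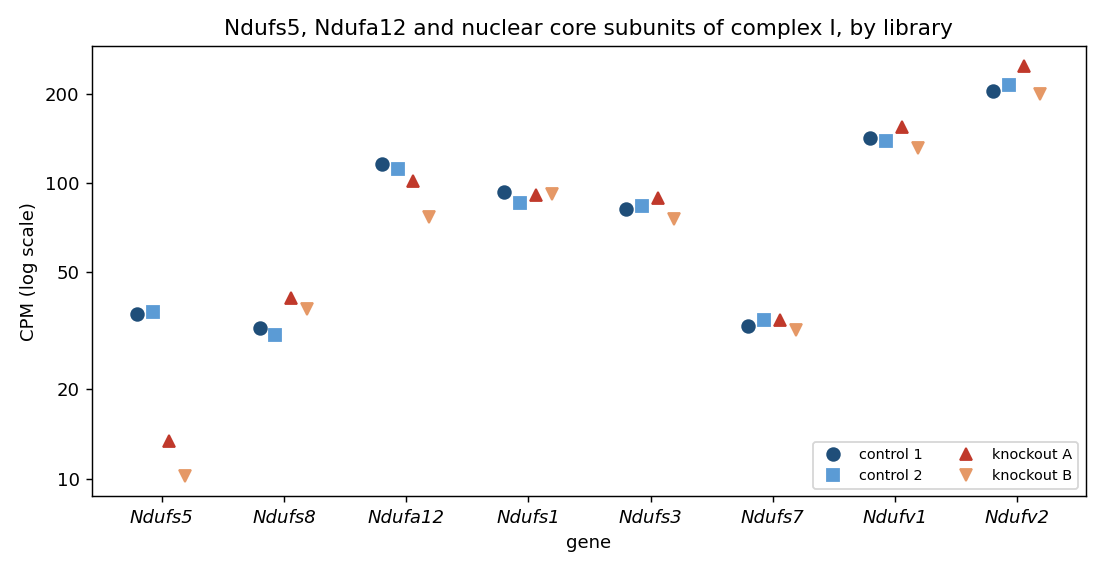
CPM (vertical axis, log scale) of *Ndufs5*, *Ndufa12* and 6 nuclear core subunits of complex I (horizontal axis), 1 point per library; CPM is not scaled for gene length, so heights compare libraries within a gene. For *Ndufs5* both knockout libraries (13.4 and 10.2 CPM) sit below the control libraries (35.9 and 36.6 CPM), and for *Ndufs8* both sit above them.

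The highest level per kb of exon in control among nuclear complex I genes was that of *Ndufa7*, an accessory subunit. Its level, as CPM per kb, was 292 and 290 in control, 390 in knockout library A and 255 in library B. The knockout libraries lay on opposite sides of control (log2 fold change 0.15, 95% interval −0.36 to 0.66). Of the 8 assembly factor genes of complex I, which build the complex but do not remain in it, 4 were above 0 and 4 below, with a median log2 fold change of −0.0019. *Ndufaf7*, a methyltransferase of complex I assembly, was at 30.1 and 28.4 CPM in control, 25.3 CPM in library A and 24.6 CPM in library B (log2 fold change −0.23, unadjusted p = 0.0861, adjusted p = 0.740 in edgeR). *Ndufaf2*, an assembly chaperone, was at 42.5 and 44.6 CPM in control, 53.7 CPM in library A and 45.3 CPM in library B (log2 fold change 0.18, adjusted p = 0.837 in edgeR). Of its exon bases 65.65% overlap another gene, *B230220B15Rik*, on the opposite strand, so some of its reads could belong to that gene.

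Complex II, succinate dehydrogenase, is encoded in the nucleus alone, and its 4 genes did not pass the test. *Sdha*, the flavoprotein subunit, was at 155 and 158 CPM in control, 150 CPM in knockout library A and 163 CPM in library B, with a log2 fold change of 0.0019 (95% interval −0.25 to 0.26). *Sdhb*, the iron-sulfur subunit, was at 96.3 and 91.6 CPM in control, 117 CPM in library A and 95.1 CPM in library B, and the groups overlapped. The membrane anchors lay on opposite sides of control. *Sdhc* was at 56.1 and 57.0 CPM in control, 57.6 CPM in library A and 60.9 CPM in library B (log2 fold change 0.07), and *Sdhd* was at 59.8 and 55.0 CPM in control, 53.5 CPM in library A and 48.7 CPM in library B.

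In complex III the 8 nuclear genes lay between −0.20 and 0.16, with a median log2 fold change of 0.06. *Uqcrc1*, a core protein of the complex, had the highest level per kb, 221 and 211 CPM per kb in control, 262 in knockout library A and 211 in library B (log2 fold change 0.13, 95% interval −0.24 to 0.50). In complex V the 17 tested nuclear genes lay between −0.16 and 0.25, with a median of 0.06. Of the 17 genes 14 were above 0, as were 8174 of all 15834 genes tested. The median log2 difference of the 17 genes from the control mean was 0.11 in library A and −0.04 in library B. *Atp5e*, the epsilon subunit, had the highest mean level per kb there, 332 and 358 CPM per kb in control, 477 in library A and 346 in library B (log2 fold change 0.25, 95% interval −0.17 to 0.68). *Atp5c1*, the gamma subunit of the rotor, was at 135 and 143 CPM in control, 173 CPM in library A and 144 CPM in library B (log2 fold change 0.19, adjusted p = 0.837 in edgeR). In both genes library A stood highest and library B lay within or just above the control values. One more nuclear gene of complex V, listed as *Atp5o_1*, had 1 or 0 reads per library and was not tested.

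The knockout libraries moved in opposite directions over most nuclear genes. In library A 73 of the 90 tested nuclear genes were above the control mean (median log2 difference 0.11), and in library B 68 of the 90 were below it (median −0.08). Over all genes tested, the median log2 difference was −0.0068 in library A and 0.0026 in library B. How many of all genes lay above or below the control mean in each library was not counted. For 52 of the 90 genes the level was above the control mean in library A and below it in library B. The summed markers of spermatocytes, of round spermatids and of elongating spermatids were likewise above both control libraries in A and below both in B. Those of spermatogonia were below both control libraries in A and in B. The part of these cell types in the shift was not tested. Without knockout library A, 24 of 104 members passed at an adjusted p of 0.05 in edgeR (23.1%, against 23.9% of genes), 23 of them lower in the remaining knockout library (12.8% of genes) and 1 higher (11.2%). Of the 23, 12 were nuclear and 11 mitochondrially encoded. Without knockout library B, 32 of 103 members passed (31.1%, against 17% of genes), 19 of them higher (11.3% of genes), all nuclear, and 13 lower (5.64% of genes), of which 2 were nuclear and 11 mitochondrially encoded. These fits take the spread from the control libraries alone.

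**Figure D3:**
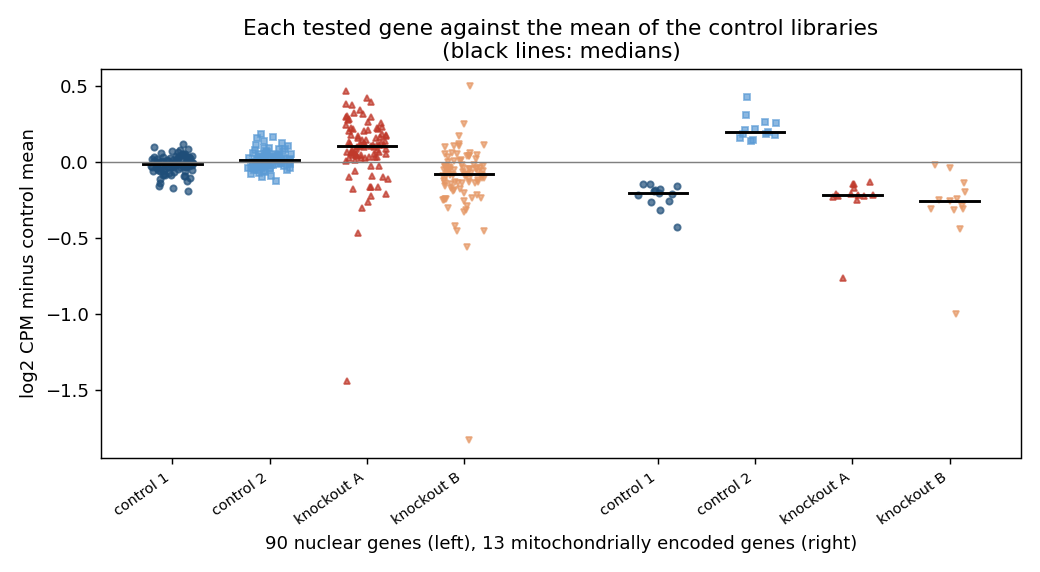
Log2 CPM minus the mean of the control libraries (vertical axis) for the 90 tested nuclear genes (left) and the 13 mitochondrially encoded genes (right), 1 point per gene and library, with black lines at the medians. The nuclear medians are 0.11 in knockout library A and −0.08 in B, while the mitochondrial points split the control libraries from each other, with control 1 near the knockout libraries.

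All 13 mitochondrially encoded genes had a log2 fold change below 0, as did 7660 of all 15834 genes tested. The 13 values ran from −0.94 to −0.09 with a median of −0.25, and 0 of the 13 genes passed the threshold. Reads on these genes made up 1.11 and 1.40% of all gene reads in control, 1.001% in knockout library A and 1.13% in library B, and the 95% Wilson intervals, which cover counting error only, ran from 1.10 to 1.11%, 1.39 to 1.40%, 0.997 to 1.005% and 1.12 to 1.13% in that order. The share in library B lay between those of the control libraries. The log2 ratio of mitochondrially encoded to nuclear member reads was 0.35 and 0.67 in control, 0.17 in library A and 0.36 in library B, so that the groups overlapped (knockout minus control −0.24).

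The difference rested on control 2. All 13 genes were higher in control 2 than in control 1, by a median of 0.40 on the log2 scale, which exceeds the median difference between the genotypes. Without control 2 the median log2 fold change of the 13 genes was −0.03, and *mt-Nd2*, *mt-Nd4*, *mt-Nd6* and *mt-Cytb* were above 0, whereas without control 1 the median was −0.42. Both knockout libraries lay below both control libraries for 5 of the 13 genes (38.5%, against 19.2% of all genes), *mt-Atp8*, *mt-Co1*, *mt-Co2*, *mt-Co3* and *mt-Nd1*. For the other 8 genes the groups overlapped.

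**Figure D4:**
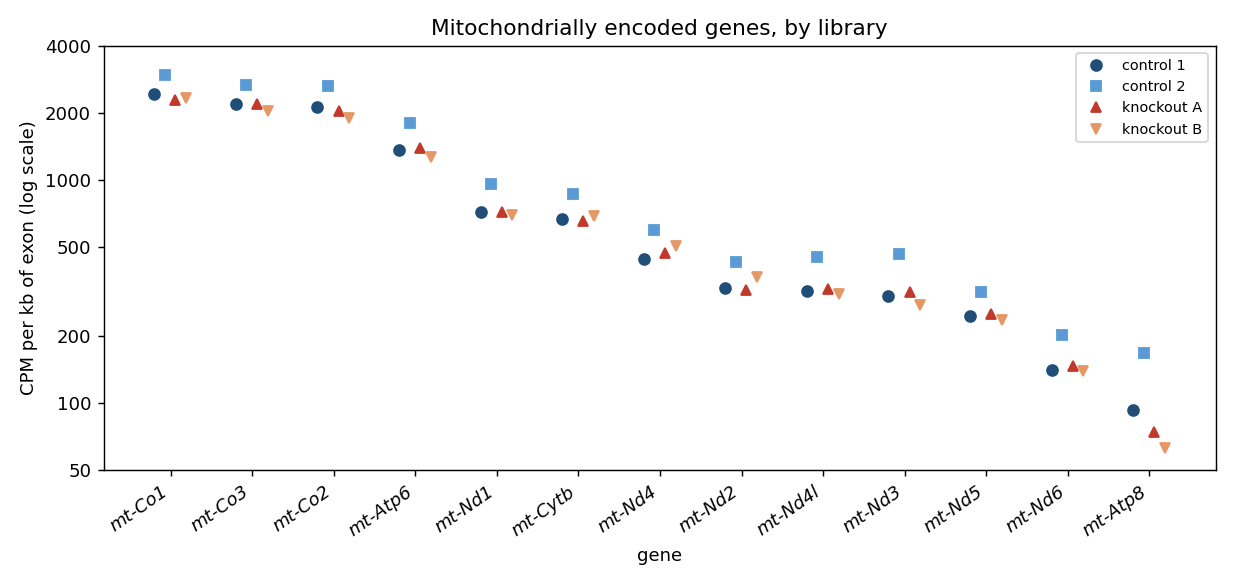
Level as CPM per kb of exon (vertical axis, log scale) of the 13 mitochondrially encoded genes (horizontal axis), ordered by the level in control 1, 1 point per library. Control 2 is the highest library for every gene, and the other libraries lie close together except at *mt-Atp8*, where the knockout libraries (74.1 and 62.9) sit below control 1 (93.5).

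The catalytic core of complex IV had the highest levels of the members. *mt-Co1*, which holds the site of oxygen reduction, was at 2427 and 2956 CPM per kb in control, 2299 in knockout library A and 2342 in library B (log2 fold change −0.21, 95% interval −0.64 to 0.21). By the control mean per kb, *mt-Co1* ranked 5, *mt-Co3* 7 and *mt-Co2* 8 of all genes in the table. The 3 genes together took between 61.0 and 62.9% of the mitochondrially encoded reads in each library. The 7 *mt-Nd* genes, core subunits of complex I, lay lower, with mean control levels between 172 and 841 CPM per kb and log2 fold changes from −0.37 (*mt-Nd3*) to −0.09 (*mt-Nd4*). *mt-Nd4* was at 610 and 822 CPM in control, 646 CPM in library A and 700.5 CPM in library B, so that both knockout libraries fell between the control libraries. *mt-Nd6*, the one of these genes encoded on the other strand, was at 73.2 and 105 CPM in control, 75.8 CPM in library A and 72.0 CPM in library B. *mt-Cytb*, the mitochondrially encoded subunit of complex III, was at 768 and 989 CPM in control, 753 CPM in library A and 791 CPM in library B (log2 fold change −0.19).

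*mt-Atp8*, a small subunit of complex V, stood apart from the other mitochondrially encoded genes. It was at 19.1 and 34.4 CPM in control, 15.1 CPM in knockout library A and 12.8 CPM in library B. The groups did not overlap, and the log2 fold change was −0.94 ± 0.29 (SE, 95% interval −1.67 to −0.21), with an unadjusted p of 0.0203 and an adjusted p of 0.492 in edgeR. Without control 2 the log2 fold change was −0.45, and without control 1 it was −1.30. *mt-Atp6*, the subunit that forms the proton channel with the rotor, was at 926 and 1224 CPM in control, 945 CPM in library A and 862 CPM in library B (log2 fold change −0.25), and its groups overlapped. Both proteins are known to be read from 1 shared mRNA, and their genes overlap by 43 bases, MT:7927-7969 of GRCm38 on the plus strand. The overlap is shown because a read in it can belong to both genes, with the start codon of *mt-Atp6* and the stop codon of *mt-Atp8* in capitals.
mt-Atp8/mt-Atp6 overlap: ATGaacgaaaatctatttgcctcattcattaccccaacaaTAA
Per kb of exon, the level of *mt-Atp8* was 0.0687 and 0.0938 of that of *mt-Atp6* in control, 0.0534 in library A and 0.0497 in library B. The overlap makes up 21.1% of the 204 bases of *mt-Atp8*, and how reads in it were divided between both genes is not given in the sources used here. *mt-Nd4l* and *mt-Nd4* overlap by 7 bases, and *mt-Nd5* and *mt-Nd6* by 14 bases on opposite strands, and whether reads were counted by strand is not given in the sources used here.

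Nuclear genes of complex IV with tissue isoforms were compared by their share of each isoform set, as levels per kb. *Cox6b2*, the testis form of the subunit that caps the intermembrane side, made up 86.5 and 85.9% of *Cox6b1* and *Cox6b2* in control, 89.3% in knockout library A and 86.7% in library B. *Cox7b2* made up 96.0 and 95.9% of *Cox7b* and *Cox7b2* in control, 97.2% in library A and 95.9% in library B. *Cox8c*, the testis form of the smallest subunit, made up 91.9 and 90.3% of the *Cox8* genes in control, 92.5% in library A and 90.9% in library B. All 3 testis forms thus outnumbered their partners in every library. The share was highest in library A for each of them, and for *Cox7b2* and *Cox8c* library B lay within or below the control values.

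The levels behind these shares differed little between genotypes. *Cox8c* had the highest level per kb of the nuclear members, 468 and 488 CPM per kb in control, 540 in knockout library A and 451 in library B (log2 fold change 0.05, 95% interval −0.27 to 0.37). *Cox6b2* was at 299 and 270 CPM per kb in control, 307 in library A and 278 in library B (log2 fold change 0.04). *Cox7b2* was at 167 and 179 CPM per kb in control, 181 in library A and 155 in library B (log2 fold change −0.04). The partners that other tissues use were lower in both knockout libraries than in both control libraries for 2 of the 3 sets, without passing the test. The same held for 19.2% of all genes tested. *Cox6b1* was at 46.4 and 44.4 CPM per kb in control, 36.8 in library A and 42.7 in library B (log2 fold change −0.19, 95% interval −0.51 to 0.12). *Cox7b* was at 7.03 and 7.56 CPM per kb in control, 5.28 in library A and 6.61 in library B (log2 fold change −0.30, 95% interval −0.81 to 0.22). For *Cox8a* the groups overlapped, at 41.4 and 52.2 CPM per kb in control, 43.5 in library A and 44.9 in library B.

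**Figure D5:**
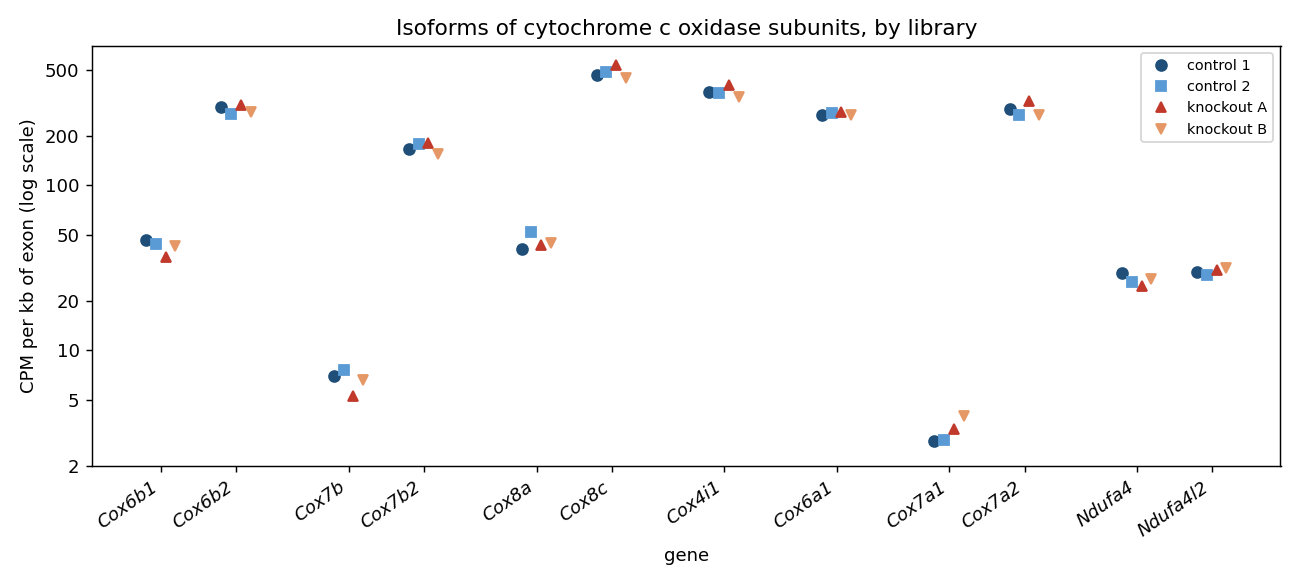
Level as CPM per kb of exon (vertical axis, log scale) of the isoforms of complex IV subunits (horizontal axis), 1 point per library, with isoforms of one subunit side by side; *Cox4i2*, *Cox6a2* and *Cox8b*, with 10 reads or fewer in every library, are not drawn. *Cox6b2*, *Cox7b2* and *Cox8c* lie above their partners in all 4 libraries.

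The isoforms known from muscle and lung were near the limit of detection. *Cox8b* had 0 reads in every library, *Cox6a2* had 1 read in knockout library B and 0 in the others, and *Cox4i2* had 6 and 7 reads in control, 3 in library A and 10 in library B. None of these genes was tested. *Cox7a1*, the muscle form of its subunit, was at 1.504 and 1.52 CPM in control, 1.78 CPM in library A and 2.14 CPM in library B, and its log2 fold change of 0.37 had a 95% interval from −0.43 to 1.17. Their partners were abundant. *Cox4i1* was at 369 and 366 CPM per kb in control, 407 in library A and 342 in library B (log2 fold change 0.03), *Cox6a1* was at 267 and 277 CPM per kb in control, 277 in library A and 266 in library B, and *Cox7a2* was at 290 and 268 CPM per kb in control, 325 in library A and 267 in library B (log2 fold change 0.09).

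*Cox7a2l* encodes a relative of *Cox7a2* that has been linked to supercomplexes of complexes III and IV. It was at 72.0 and 73.6 CPM in control, 62.5 CPM in knockout library A and 53.1 CPM in library B. The groups did not overlap, and the log2 fold change was −0.33 ± 0.11 (SE, unadjusted p = 0.0297, adjusted p = 0.543 in edgeR). *Ndufa4*, first named as a subunit of complex I and since assigned to complex IV, and its paralogue *Ndufa4l2* had about the same level per kb. *Ndufa4l2* made up 50.2 and 52.4% of both in control, 55.5% in library A and 53.6% in library B, so that its share was higher in both knockout libraries. Its own level was 27.9 and 26.7 CPM in control, 28.8 CPM in library A and 29.4 CPM in library B (log2 fold change 0.09, adjusted p = 0.925 in edgeR), and that of *Ndufa4* was 18.5 and 16.2 CPM in control, 15.4 CPM in library A and 17.0 CPM in library B (log2 fold change −0.10).

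Genes that work beside the complexes were read from lists. Cytochrome c, which carries electrons from complex III to IV, has a testis form, *Cyct*, which made up 88.1 and 88.8% of both forms per kb in control, 90.4% in knockout library A and 87.8% in library B. *Slc25a31*, the germ cell form of the carrier that exchanges ADP for ATP, made up 32.2 and 31.6% of 3 such carriers in control, 34.5% in library A and 32.8% in library B. The log2 fold change was 0.10 for *Cyct*, 0.01 for the somatic form *Cycs*, 0.01 for *Slc25a31*, −0.08 for *Slc25a4* and −0.12 for *Slc25a5*, and the phosphate carrier gene *Slc25a3* was at 0.11. None of these genes passed the test.

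Of the wider lists, 0 of 14 genes of the tricarboxylic acid cycle, 0 of 23 assembly factors of complexes III and IV, 0 of 20 genes that maintain and transcribe mitochondrial DNA and 0 of 8 regulators of nuclear respiratory genes passed in edgeR, and 0 had an unadjusted p below 0.05. Of the 78 genes for proteins of the mitochondrial ribosome, which translates the mitochondrially encoded members, 0 passed and 5 had an unadjusted p below 0.05 (6.41%, against 7.79% of all genes). The median log2 fold changes were 0.03, 0.04, −0.06, 0.04 and 0.05 in that order, beside 0.01 for all genes. Both knockout libraries lay below both control libraries for 1, 3, 6, 1 and 11 genes of these lists and above them for 4, 0, 6, 1 and 17 genes, in the same order. For the DNA and RNA maintenance list these were 30% in each direction and for the ribosome list 14.1% lower and 21.8% higher, against 19.2% lower and 17.9% higher of all genes. The DNA and RNA maintenance list ran from −0.51 to 0.27.

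Some members share sequence or exon positions with other genes, which bears on how their reads could be placed. For 26 of the members at least 50% of the 31-base coding words occur in another annotated transcript, 7 of them mitochondrially encoded. In the control libraries 10 members had any read that mapped to more than 1 place, and 2 had more than 5% of such reads, *Ndufa13* (20.9%) and *Uqcrc2* (6.55%). The log2 fold changes of these genes, −0.17 and 0.16, are therefore less certain than their counts make them appear. *Ndufa13* shares 14.9% of its coding words with other transcripts and *Uqcrc2* 0%. Exons of a gene on the opposite strand cover 29.98% of the exon bases of *Ndufa13* (*Tssk6*) and 19.75% of those of *Uqcrc2* (*Pdzd9*). The source of these reads was not tested.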

How the data were processed

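The authors isolated testis RNA, selected poly(A) RNA, prepared libraries with the Ultra II RNA kit and sequenced 150 bp paired-end reads. In CLC Genomics Workbench 12.0 they trimmed and aligned the reads to GRCm38 (mm10) and deposited a table of read counts (whole numbers) over the exons of every gene. Most mitochondrial mRNAs carry only short tails, so their share can depend on the poly(A) selection. The comparison columns of the authors (fold changes and p-values) were not used, nor were 60 of 67 columns of values per library.

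Counts were scaled by TMM and tested by the quasi-likelihood test of edgeR 4.0.16 (filterByExpr, minimum count 10), with Benjamini-Hochberg adjustment over all 15834 genes. Standard errors were obtained by dividing the log2 fold change by the root of the F statistic. Alternatives used DESeq2 1.42.0, limma 3.58.1 (voom), other scalings, other filters and leaving out each library. The biological coefficient of variation was 15.3%. CPM is scaled by TMM, and CPM per kb divides it by the exon length in the table. The scripts were tested on simulated data. Overlaps and shared 31-base words were read from GENCODE M21, and promoters from RefSeq.

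The members and lists were chosen with earlier results of these data known. Named were all mitochondrially encoded genes, the isoform sets of complex IV, the complex II genes, members past the threshold, the nuclear members with the 4 largest rises and the 4 largest falls whose groups did not overlap, the 5 with the smallest p and the highest level per kb of complexes I, III, IV and V. With 2 libraries against 2, an exact permutation test of one value could not reach 0.05, so such values carry no p. One member is counted in the totals but not reported here by itself.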

Additional observations from a re-analysis of the deposited data

How the results depend on the processing

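The precision is limited by 2 libraries per genotype. The 95% interval of a nuclear member had a median full width of 0.60 on the log2 scale. This width is not a limit of detection. *Ndufs8*, at a log2 fold change of 0.32, had an unadjusted p of 0.0305 in the quasi-likelihood test of edgeR. After adjustment even *Ndufs5*, at −1.62, did not pass that test under the settings of the report (adjusted p = 0.0610). Smaller differences could therefore be missed. No paired analysis was possible because both knockout columns carry the same number. The count of unique reads was not run as an alternative, and the unique reads of the knockout libraries were not looked at.

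Under DESeq2, with no scaling beyond the totals, with no filter and at an adjusted p threshold of 0.1, 1 member passed in place of 0, and 193, 41, 52 and 53 genes passed in that order in place of 15. With limma voom, RLE scaling, library sizes without mitochondrial reads and at least 10 counts in every library 0 members passed. With 1 library left out, 0 to 32 members and 8 to 3890 genes passed. With no scaling beyond the totals, the log2 fold change of *Cox4i1* was −0.0011, of *Cox6a1* −0.022 and of *Sdha* −0.014, and with at least 10 counts in every library that of *Cox6a1* was −0.0041 and of *Sdha* −0.0022, against values above 0 in the report. The cause was not tested.

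The following ranges are for leaving out 1 library. The median log2 fold change ranged from −0.422 to −0.0264 for the mitochondrially encoded genes and from −0.0747 to 0.105 for the nuclear genes. By complex, the nuclear medians ranged from −0.0840 to 0.112 in complex I, −0.19 to 0.16 in its assembly factors, −0.0163 to 0.0455 in complex II, −0.0794 to 0.117 in complex III, −0.0701 to 0.0692 in complex IV and −0.0412 to 0.110 in complex V, and the mitochondrial ones from −0.445 to −0.0164 in complex I, −0.36 to 0.0053 in complex III, −0.349 to −0.0680 in complex IV and −0.87 to −0.25 in complex V.

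Single genes that changed sign ranged from −0.31 to 0.0585 (*mt-Nd2*), −0.29 to 0.14 (*mt-Nd4*), −0.51 to 0.0099 (*mt-Nd6*), −0.36 to 0.0053 (*mt-Cytb*), −0.10 to 0.15 (*Cox4i1*), −0.0290 to 0.0310 (*Cox6a1*), −0.0326 to 0.116 (*Cox6b2*), −0.0582 to 0.222 (*Cox7a2*), −0.16 to 0.0692 (*Cox7b2*), −0.24 to 0.0914 (*Cox8a*), −0.0828 to 0.177 (*Cox8c*), −0.19 to 0.0020 (*Ndufa4*), −0.0593 to 0.0633 (*Sdha*), −0.19 to 0.42 (*Ndufa7*) and −0.0344 to 0.281 (*Uqcrc1*).

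Other values moved by over 1.5 times without a change of sign. Without control 2 the other mitochondrially encoded genes lay nearer 0, between −0.11 (*mt-Co2*) and −0.016 (*mt-Nd4l*), apart from *mt-Atp8* at −0.45. Without control 1 the same genes other than *mt-Atp8* lay further from 0, between −0.65 (*mt-Nd3*) and −0.34 (*mt-Co3*). Without knockout library A or B, in that order, the values were 0.0046 and 0.468 for *Atp5e*, 0.0199 and 0.319 for *Sdhb*, 0.0515 and 0.320 for *Atp5c1*, 0.0561 and 0.302 for *Ndufaf2*, −0.559 and −0.161 for *Ndufa12*, −0.0872 and −0.303 for *Cox6b1* and −0.140 and −0.466 for *Cox7b*. Without library B they were 0.233 for *Cox7a1*, −0.219 for *Cox7a2l* and −0.0976 for *Sdhd*, which was −0.104 without control 1. *Sdhc* was at 0.108 without library A and 0.0267 without library B, and *Ndufa4l2* was at 0.0577 without control 2.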
